A study of Homo sapiens with 45 samples.

Results

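Of the 60624 genes counted in these libraries, 6 were followed here by symbol: the carbonic anhydrases CA9 and CA12, the lactate carriers SLC16A1 and SLC16A3, their chaperone BSG, and the bicarbonate transporter SLC4A7. All 6 passed the filter on low counts in each of the 4 count tables. The data are RNA sequencing of 45 libraries of T47D, an established human line from a luminal breast carcinoma that carries the oestrogen receptor, in 15 groups of 3. In the shRNA table, cells carried a control hairpin (shCtrl) in normoxia or in hypoxia, or a hairpin against the transcription factor ZHX2 (shZHX2) in hypoxia. The other 3 tables held hypoxic cells throughout. In the hexanediol table the cells received no 1,6-hexanediol, 0.5% or 1% of it for 24 h, a compound that weakens the contacts holding protein condensates together. In the rescue table the groups were shCtrl with vector, and shZHX2 with vector or with ZHX2 labelled WT, PA or SA, forms the labels do not explain. The sgRNA table held cells labelled sgCtrl, sgZHX2, teton_control and teton_sgZHX2. These labels do not say whether, or for how long, a guide was induced. Constructs were delivered by lentivirus, with hygromycin or puromycin selection. The sources used here do not give the oxygen level, the time in hypoxia, or whether a line was a clone or a pool.

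Cells that make ATP by glycolysis must export lactate and acid. SLC16A1 (MCT1) and SLC16A3 (MCT4) carry lactate and protons together across the plasma membrane, and BSG (basigin, CD147) escorts both carriers to the surface. CA9 and CA12 are membrane carbonic anhydrases that hydrate carbon dioxide outside the cell, and SLC4A7 (NBCn1) brings sodium and bicarbonate in, so that the cytoplasm stays buffered. CA9 and SLC16A3 are textbook targets of the hypoxia-inducible factors (HIF), while CA12 is known in luminal breast cells as an oestrogen-responsive gene.

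The genes lie apart in the genome (GENCODE release 29, GRCh38): CA9 at chr9:35673856-35681159 on the plus strand, CA12 at chr15:63321378-63382161 on the minus strand, SLC16A1 at chr1:112911847-112957013 on the minus strand, SLC16A3 at chr17:82228397-82261129 on the plus strand, BSG at chr19:571277-583493 on the plus strand and SLC4A7 at chr3:27372721-27484420 on the minus strand. Values cover all exons of a gene. The GC content of their transcripts, which matters for several results, was 40.0% for SLC4A7, 44.9% for SLC16A1, 50.5% for CA12, 58.8% for CA9, 61.9% for BSG and 65.6% for SLC16A3. Exons of CA9 share 643 bases with ARHGEF39 on the opposite strand, and those of SLC16A3 share 482 with CSNK1D. The sources used here do not say whether counting used strand, so reads from these stretches cannot in general be told apart. ARHGEF39 had 25.3 CPM (counts scaled to the TMM-adjusted library total) in normoxia. CA9 had 1 count in all there, so at most 1 read of ARHGEF39 was counted for it. CSNK1D had 155 ± 2.58 CPM in shCtrl normoxia, above SLC16A3 at 41.8 ± 1.64, and 276 ± 3.93 CPM in shCtrl hypoxia.

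RefSeq promoter sequence (GRCh38.p14) is shown because HIF binds a short core, ACGTG or GCGTG, and the hypoxia result turns on which of these genes rose. Both motifs were searched on both strands of the 250 bases before each RefSeq start; a match may overlap another. Of 11 windows of 5 members, 7 held at least 1 match, against 43.21% of 35116 such windows in the table (18.51% for ACGTG, 32.22% for GCGTG); SLC16A1 had no entry. SLC16A3 alone had 5 of the 11 windows. Their GC content ran from 34.8% to 83.2%, and this share is not matched for GC content. Binding of HIF at these sites was not tested. Matches are in capitals, and read CACGT or CACGC where they lie on the other strand. For SLC16A3, the window with ACGTG was chosen among 5 and for BSG and SLC4A7 the one with a match among 2 each. A window is shown up to the first GENCODE exon. The only match of CA9, 18 to 14 bases before the start, and that of CA12, 234 to 230 bases before it, lie inside a GENCODE exon and are shown as runs of 30 bases.
CA9, chr9:35673898-35673927, plus strand: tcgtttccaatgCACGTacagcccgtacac
CA12, chr15:63382063-63382092, minus strand: gcggatctcaccCACGCctgccagcagctc
SLC16A3, chr17:82228792-82229031, plus strand: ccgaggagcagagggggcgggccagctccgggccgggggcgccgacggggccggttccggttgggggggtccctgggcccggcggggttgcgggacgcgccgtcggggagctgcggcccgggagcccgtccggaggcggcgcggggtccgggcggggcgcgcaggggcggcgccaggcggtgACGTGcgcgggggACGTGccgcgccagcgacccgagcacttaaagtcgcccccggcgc
BSG, chr19:572346-572564, plus strand: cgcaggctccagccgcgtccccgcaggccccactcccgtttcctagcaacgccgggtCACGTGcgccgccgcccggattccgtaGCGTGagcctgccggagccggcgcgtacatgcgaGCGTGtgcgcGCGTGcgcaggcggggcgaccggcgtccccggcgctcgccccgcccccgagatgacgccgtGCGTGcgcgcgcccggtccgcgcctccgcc
SLC4A7, chr3:27484421-27484634, minus strand: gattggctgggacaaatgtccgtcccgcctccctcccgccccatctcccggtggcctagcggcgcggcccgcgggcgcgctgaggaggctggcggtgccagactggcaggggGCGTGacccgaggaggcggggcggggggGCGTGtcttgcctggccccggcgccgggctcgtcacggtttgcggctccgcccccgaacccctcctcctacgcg
The SLC16A3 run holds 2 copies of ACGTG in a window of 83.2% GC, and the BSG run holds 6 matches, of which 2 are the strands of one CACGTG. The SLC4A7 run holds 2 copies of GCGTG, and this gene did not rise in hypoxia.

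Libraries held 14111216 to 27217814 counts. All 8 luminal markers (KRT8, KRT18, KRT19, EPCAM, CDH1, ESR1, GATA3 and FOXA1) were at 1 CPM or more in each group, and 12 markers of basal, fibroblast, endothelial and leukocyte cells summed to 13.7 to 72.7 CPM. Of these 12, 5 to 7 were under 1 CPM in groups of the hexanediol table, and 10 or 11 in groups of the other tables. The summed luminal level was lowest with 1% hexanediol, at 3547 to 3780 CPM, against 24504 to 27355 CPM in its controls. ZHX2 fell with the hairpin, from 18.8 ± 2.63 to 5.15 ± 1.53 CPM in the shRNA table (log2 fold change -1.86) and from 32.0 ± 1.99 to 6.85 ± 0.545 CPM in the rescue table (-2.22). With sgZHX2 its transcript was 49.5 ± 1.68 CPM against 45.1 ± 1.36, and with teton_sgZHX2 49.3 ± 1.34 against 47.4 ± 1.85. This does not check the guides, since an edited gene can still be transcribed.

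Values per kilobase of exon allow a rough comparison between genes. The length counts every annotated exon, 8995 bases for SLC16A3 and 1670 for CA9, so it can exceed that of the transcript made. No GC offset was applied. On this scale BSG was the most abundant of the 6 in shCtrl normoxia, at 242 CPM per kb. CA12 followed at 41.1, SLC16A3 at 4.64, SLC4A7 at 1.04, SLC16A1 at 0.730 and CA9 at 0.00865. In shCtrl hypoxia the order was BSG at 620 CPM per kb, SLC16A3 at 89.7, CA12 at 48.0, CA9 at 14.1, SLC4A7 at 0.299 and SLC16A1 at 0.214. SLC16A3 thus moved from the 62.0th to the 95.9th percentile of the genes tested, and CA9 from the 0.148th to the 79.5th.

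**Figure D1:**
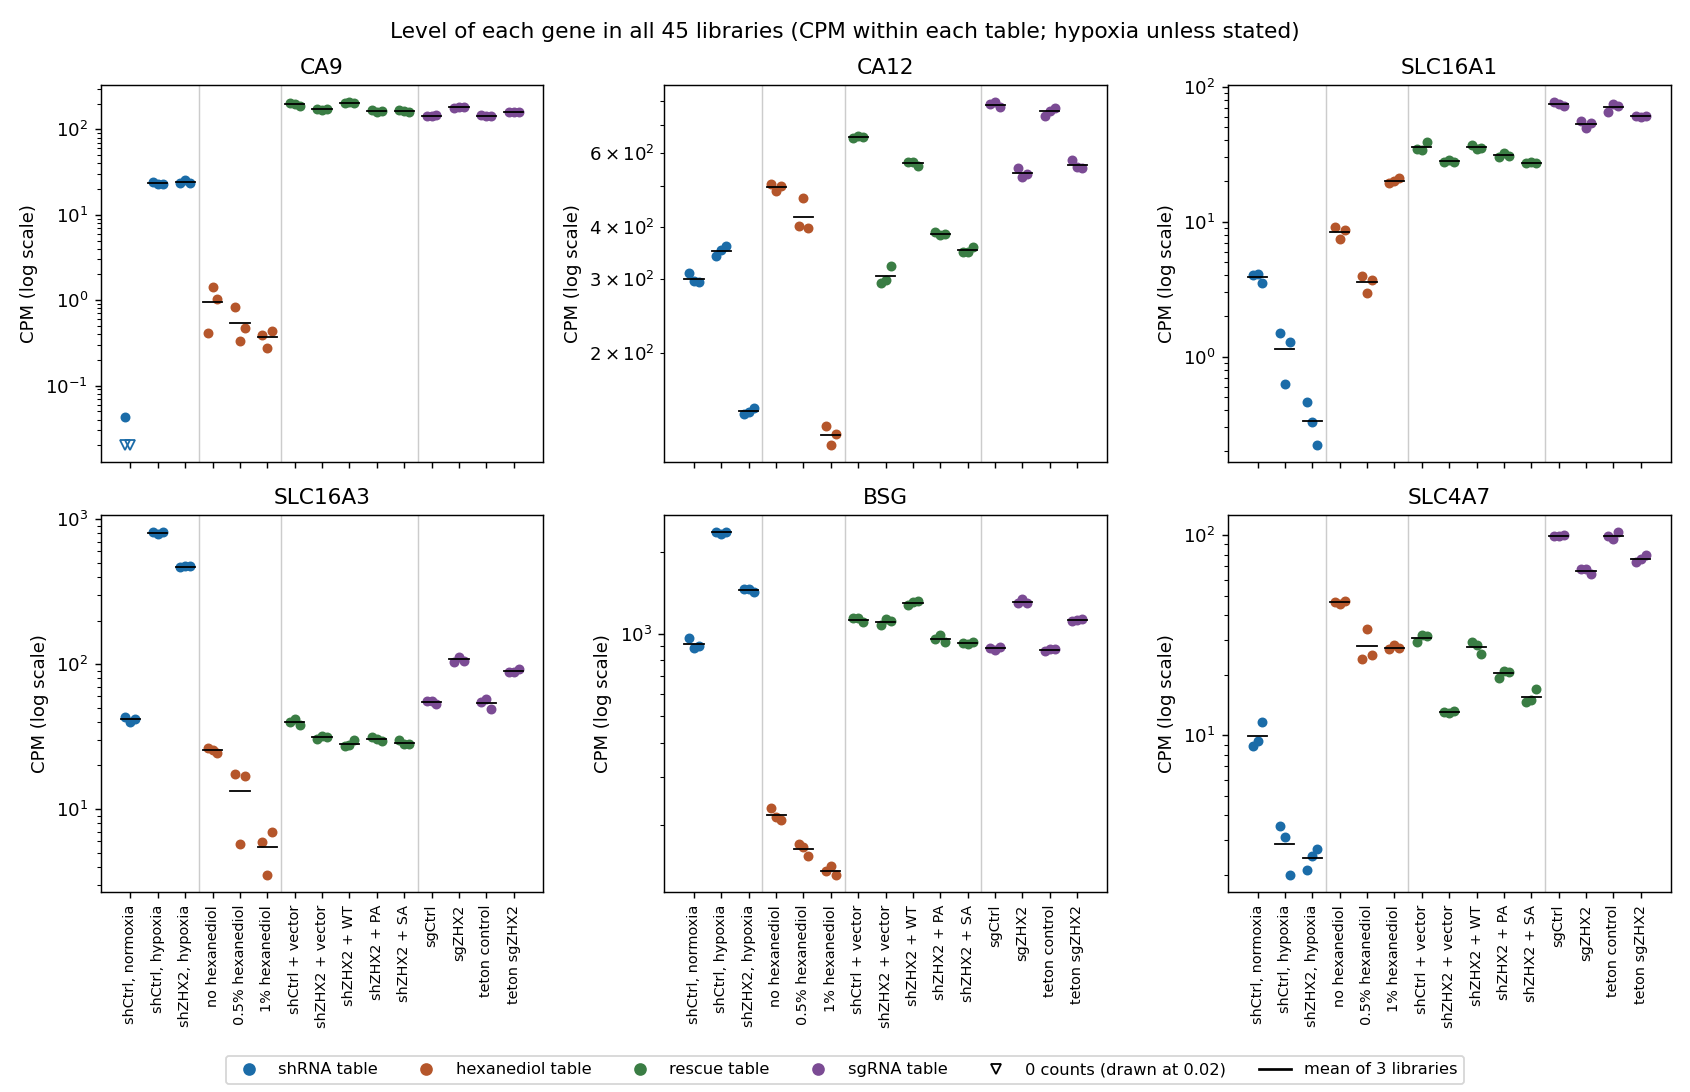
Level of each gene in all 45 libraries, in CPM on a log axis, by group; points are libraries, lines are means of 3, and no mean is drawn for CA9 in normoxia, where 2 libraries had 0 counts. CA9 lies near 1 CPM or under it in the hexanediol table and between 141.7 and 208.8 CPM in the rescue and sgRNA tables, and SLC16A3 reaches 789 CPM or more in shCtrl hypoxia of the shRNA table and stays at 474.1 CPM or less elsewhere.

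Hypoxic control cells of the 4 tables differed widely in these genes. The tables were scaled apart, so the values are a description. The GC content of counted reads, weighted by gene, also differed. It was 54.9% to 55.0% in hypoxic shCtrl, 48.3% to 48.5% in the hexanediol controls, 53.7% to 53.9% in shCtrl with vector and 51.5% in sgCtrl. Mitochondrial shares were 9.12% to 9.57%, 5.54% to 5.73%, 0.749% to 0.778% and 2.51% to 2.71% in the same order. The part of these in the differences was not tested. CA9 had 23.5 ± 0.733 CPM in hypoxic shCtrl cells, 0.959 ± 0.507 in the hexanediol controls, 197 ± 6.77 in shCtrl with vector and 145 ± 3.98 in sgCtrl. SLC16A3 went another way, at 807 ± 16.0, 25.6 ± 1.15, 39.9 ± 2.07 and 55.0 ± 1.60 CPM in the same order, beside 41.8 ± 1.64 CPM in normoxic shCtrl cells. The hexanediol controls lay below these normoxic libraries, and shCtrl with vector overlapped them. SLC4A7 ran from 2.87 ± 0.779 CPM in hypoxic shCtrl cells to 99.4 ± 0.594 in sgCtrl, and SLC16A1 from 1.13 ± 0.449 to 74.4 ± 2.41. Over all 15 groups, CA9 was highest in the WT rescue and lowest in normoxia, CA12 highest in sgCtrl and lowest with 1% hexanediol, SLC16A1 highest in sgCtrl and lowest in shZHX2 hypoxia, and SLC4A7 highest in teton_control and lowest in shZHX2 hypoxia. SLC16A3 and BSG were both highest in shCtrl hypoxia and lowest with 1% hexanediol. When the groups were ranked by mean, the libraries of neighbouring groups overlapped in 7 of 14 steps for CA9, 3 for CA12, 4 for SLC16A1, 6 for SLC16A3, 6 for BSG and 5 for SLC4A7.

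Hypoxia in shCtrl cells raised CA9 and SLC16A3 far more than most genes, raised BSG and, slightly, CA12, and lowered SLC16A1 and SLC4A7. CA9, silent in normoxia, was counted 0, 0 and 1 times in the normoxic libraries and 374, 367 and 378 times in the hypoxic ones. Per scaled total this is a ratio of 1583, with an exact 95% binomial interval from 283.5 to 62572 that covers counting error only. The fitted log2 fold change of a gene with 1 count in a group depends on the prior count and is not given. CA12 had 309.3, 296 and 295.4 CPM in normoxia and 340.2, 352 and 360.4 CPM in hypoxia. These groups did not overlap, yet the log2 fold change was only 0.23 ± 0.03 (SE, edgeR adjusted p = 5.56e-10), and it turned to -0.26 when libraries were scaled by their totals alone, a scaling that moved the median of all genes by -0.49.

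SLC16A3, the exporter with the lower affinity of the pair, had 43.1, 40.0 and 42.2 CPM in normoxia and 819.8, 789 and 812.1 CPM in hypoxia. That is a 19.3-fold rise (log2 4.27 ± 0.03, edgeR adjusted p = 6.37e-68), larger than that of 99.7% of the genes tested. BSG rose 2.56-fold, from 969.1, 889.3 and 902.1 CPM to 2364, 2328 and 2364 CPM (log2 1.35 ± 0.03, edgeR adjusted p = 1.12e-45). SLC16A1, which the same chaperone serves, moved the opposite way, from 4.04, 4.08 and 3.51 CPM to 1.497, 0.632 and 1.28 CPM. All hypoxic libraries lay below all normoxic ones, although the hypoxic values rest on 23, 10 and 21 reads (log2 -1.77 ± 0.25, edgeR adjusted p = 6.27e-09). SLC4A7 had 8.88, 9.43 and 11.7 CPM in normoxia and 3.51, 3.10 and 2.01 CPM in hypoxia, again without overlap (log2 -1.80 ± 0.16, edgeR adjusted p = 3.63e-15). In bulk RNA, fewer cells with a transcript and less of it per cell cannot be told apart.

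All 6 genes were called in this comparison at an adjusted p under 0.05, 4 higher and 2 lower, but so were 79.9% of the 14903 genes tested, 43.1% higher and 36.8% lower. The median log2 fold change of the 6, which moved both ways, was 0.79 against 0.12 over all genes, and 0.36 with the GC and length offset described next. Hypoxic libraries also had a larger share of mitochondrial counts, 9.12% to 9.57% against 4.55% to 4.76%, and a gene's change followed its GC content across genes (Spearman rho = 0.71 over 14816 genes, which are not independent replicates). With an offset for GC and length, SLC16A3 stayed at 3.62 ± 0.03 and CA12 at 0.21 ± 0.03, but BSG went from 1.35 to 0.50 ± 0.02 and SLC16A1 from -1.77 to -1.07 ± 0.26. SLC4A7 lost its call, at -0.23 ± 0.17 (edgeR adjusted p = 0.223).

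Other genes of acid and lactate handling were taken from 5 lists. For comparison, 43.1% of all genes tested were called higher in hypoxia and 36.8% lower, with a median log2 fold change of 0.12. The lists were not tested against these shares. Of 5 further carbonic anhydrases tested, 3 rose in hypoxia and none fell. Among them were CA11, a member without catalytic activity, which went from 14.1 ± 0.685 to 50.1 ± 1.54 CPM (log2 1.82), and the mitochondrial CA5B (1.13). Of 14 other monocarboxylate carriers and their partners, 6 rose and 5 fell, led by SLC16A13 (1.52) and SLC16A6 (-1.41). Bicarbonate transporters rose in 6 of 7 cases with a median of 1.13, among them SLC4A3 (1.68) and SLC26A6 (1.40). These list values are without the GC and length offset, under which the fall of SLC4A7 lost its call. Of 12 sodium-proton exchangers and partners, 8 rose and 4 fell, SLC9A2 (-1.41) among the latter. Subunits of the V-ATPase, the pump that acidifies lysosomes, rose in 10 and fell in 9 of 21 cases, with ATP6V1A at -2.19 and ATP6V1C1 at -2.12.

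**Figure D2:**
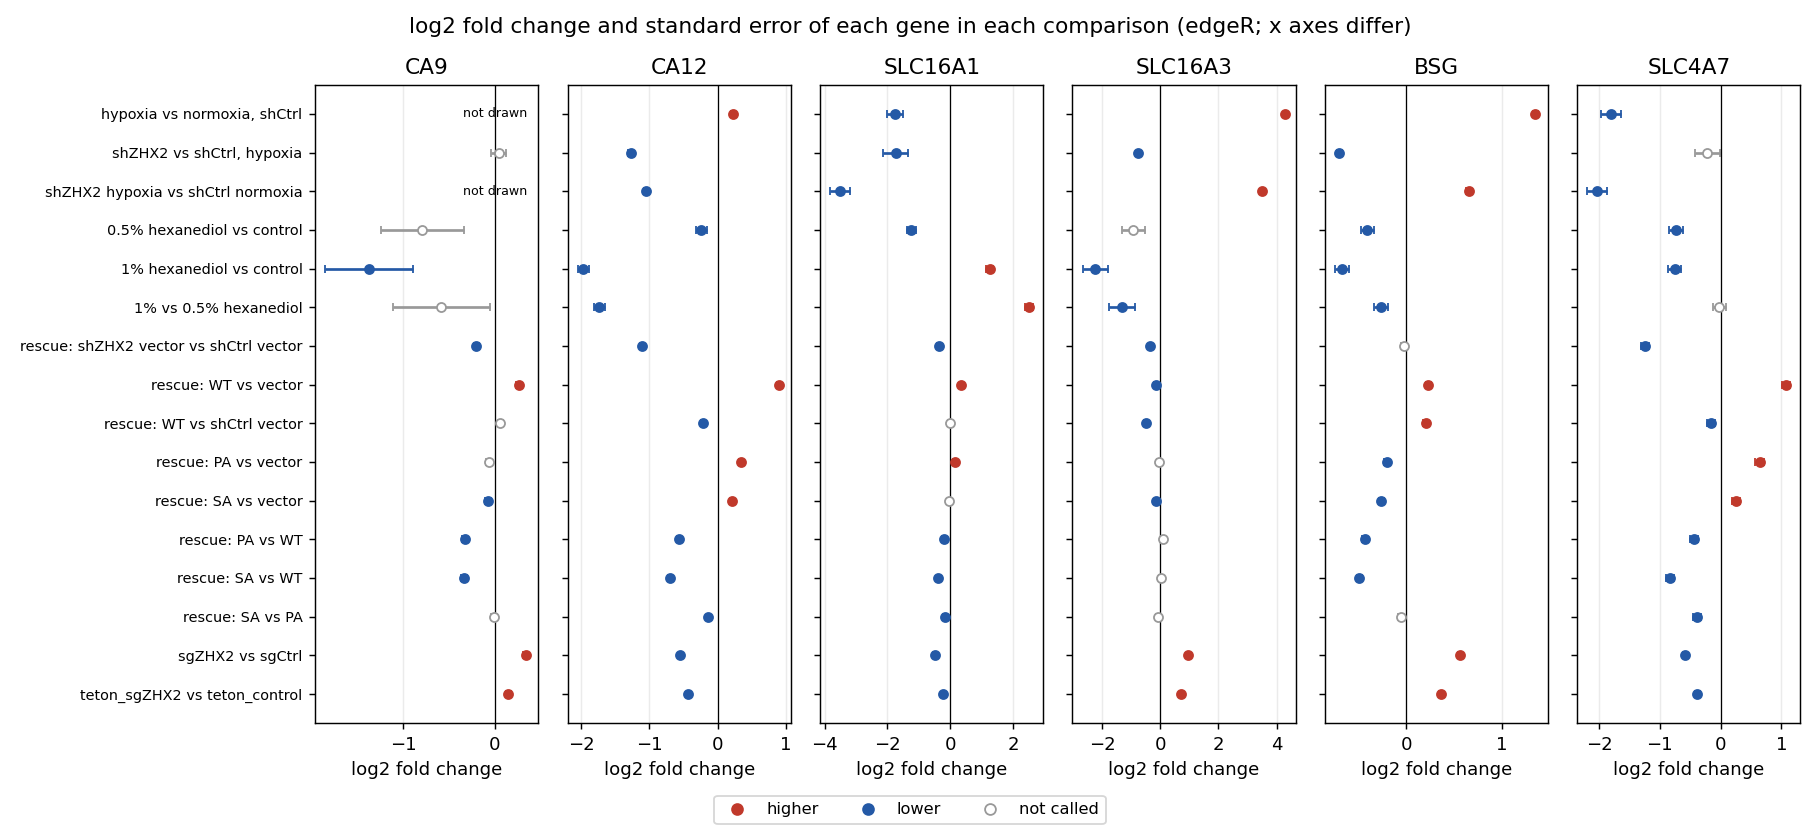
Fitted log2 fold change (x axis, scaled per gene) with its standard error for each gene in each of the 16 comparisons (rows); filled points were called higher (red) or lower (blue) at an edgeR adjusted p under 0.05, open points were not. CA9 against normoxia is not drawn; CA12 lies left of 0 in every comparison of lowered or guide-targeted ZHX2 with its control, from -1.28 to -0.43.

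Knockdown of ZHX2 in hypoxia lowered CA12, SLC16A3, BSG and SLC16A1, and CA9 did not pass the test. CA9 had 23.3, 25.5 and 23.9 CPM with shZHX2 against 24.3, 23.2 and 23.0 with shCtrl, overlapping groups with a log2 fold change of 0.04 ± 0.08 (edgeR adjusted p = 0.646). It was called slightly higher, at 0.28 with scaling by totals alone (edgeR adjusted p = 0.00291) and at 0.21 with the GC and length offset (0.0234). CA12 fell to 142.9, 144.2 and 147.6 CPM, below hypoxic and also below normoxic shCtrl cells. Its log2 fold change was -1.28 ± 0.03 against hypoxic shCtrl (edgeR adjusted p = 1.51e-41) and -1.05 ± 0.03 against normoxic shCtrl.

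SLC16A3 fell to 465.4, 474.1 and 473.2 CPM, a log2 fold change of -0.78 ± 0.03 (edgeR adjusted p = 9.25e-34), and BSG to 1457, 1460 and 1422 CPM, at -0.70 ± 0.03 (edgeR adjusted p = 1.49e-31; -0.44 with the GC and length offset). Neither group overlapped that of hypoxic shCtrl, and both genes remained above normoxic shCtrl cells, SLC16A3 11.3-fold and BSG 1.57-fold. For BSG that last difference went from 0.65 to 0.06 on the log2 scale with the GC and length offset. SLC16A1 was down to 8, 6 and 4 reads, or 0.462, 0.326 and 0.221 CPM (log2 -1.74 ± 0.40, edgeR adjusted p = 0.000119). SLC4A7 had 2.13, 2.5 and 2.70 CPM, within the range of hypoxic shCtrl (log2 -0.22 ± 0.21, edgeR adjusted p = 0.345), and was called lower with the offset, at -0.48 (0.0358).

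The 4 calls, all lower, stand against 66.8% of all genes called, 33.6% higher and 33.3% lower, and the median of the 6 was -0.74 against 0.02. This contrast shares its hypoxic shCtrl libraries with the hypoxia contrast, so the opposite signs of SLC16A3 and BSG in the 2 contrasts are not independent. Against normoxic shCtrl, all 6 were called in shZHX2 hypoxia, 3 higher and 3 lower, beside 81.6% of all genes, 40.0% higher and 41.6% lower. The share of mitochondrial counts was 11.9% to 12.4% with shZHX2. The summed luminal markers were at 22290 to 24049 CPM in normoxia, 58411 to 59092 in shCtrl hypoxia and 27260 to 27538 in shZHX2 hypoxia, and the 12 markers of other cells at 33.9 to 37.7, 47.9 to 53.0 and 69.6 to 72.7 CPM. Of those 12, 11 were under 1 CPM and 4 or 5 at 0 in each group. The part of these in the results was not tested. Elsewhere in the pathway, 7 of 12 sodium-proton exchangers and partners fell and 2 rose, SLC9A7 (-0.89) and SLC9A2 (-0.84) among those that fell. Among the V-ATPase subunits 12 of 21 rose and 5 fell, with ATP6V1F at 1.16 and TCIRG1 at -1.27. Of the carbonic anhydrases 3 of 5 rose, CA5B (0.54) among them, and 1, CA8 (-0.96), fell. Of the other carriers and partners, 5 of 14 rose and 6 fell, led by NPTN (0.68), a relative of BSG, and SLC16A5 (-0.80). Of the bicarbonate transporters 1, SLC26A11 (0.54), rose and 3 fell, SLC4A3 (-0.92) among them.

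Hexanediol lowered BSG and SLC4A7 at both doses and CA12 and SLC16A3 at 1%, lowered CA12 slightly at 0.5% by a call that several settings ended, and moved SLC16A1 in opposite directions at the low and the high dose. SLC16A1 had 9.08, 7.47 and 8.72 CPM without hexanediol, 3.99, 2.97 and 3.68 with 0.5% and 19.3, 20.2 and 21.0 with 1%. The 3 groups did not overlap: the log2 fold change was -1.25 ± 0.14 with 0.5% (edgeR adjusted p = 9.75e-06), 1.25 ± 0.12 with 1% (4.54e-07) and 2.5 ± 0.13 between the doses (1.76e-09). This last value exceeded that of 99.1% of the genes tested. SLC16A1-AS1, an antisense gene that shares 175 exonic bases with it, rose as well with 1%, from 0.509 to 1.43 CPM (log2 1.47).

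CA12 had 506.8, 488.3 and 499.8 CPM without hexanediol, 402.5, 469.2 and 396.9 with 0.5%, and 133.3, 120 and 127.8 with 1%. The drop with 1% was 3.92-fold (log2 -1.97 ± 0.08, edgeR adjusted p = 7.17e-11). That with 0.5% was small (-0.24 ± 0.08, edgeR adjusted p = 0.023) and lost its call without any one control library or without the first or the third treated library (adjusted p 0.0627 to 0.142), with scaling by totals alone (-0.11, 0.279) and without the filter (-0.19, 0.0887). CA9 was nearly absent from this table, with 41, 25 and 18 reads summed over the 3 libraries of no, 0.5% and 1% hexanediol. Its call with 1% (-1.37 ± 0.48, edgeR adjusted p = 0.0219) came with overlapping groups and was lost with DESeq2 (adjusted p = 0.0526), with the GC and length offset (0.0897) and without the second or the third control library or the second treated library (0.0678 to 0.127).

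SLC16A3 had 26.6, 25.7 and 24.3 CPM without hexanediol, 17.6, 5.74 and 16.9 with 0.5% and 5.90, 3.51 and 6.94 with 1%. Both treated groups lay below the controls, and the second library of 0.5% stood apart at the level of 1%. With 1% the log2 fold change was -2.24 ± 0.43 (edgeR adjusted p = 0.00272). With 0.5% it was -0.93 ± 0.39 and not called (edgeR adjusted p = 0.107), but -0.57 and called (7.29e-06) without the second libraries of both doses, in which the hypoxia gene NDRG1 was also lowest of its group, at 24.8 and 26.4 CPM. The difference between the doses, -1.31 ± 0.44, was called at an adjusted p of 0.0375 with overlapping groups, lost its call without any one treated library other than the second of 0.5% (0.0522 to 0.11) or with the GC and length offset (-0.94, 0.0886), and was -1.42 (4.56e-11) without both second libraries.

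BSG had 229.6, 214.1 and 207.6 CPM without hexanediol, 170.6, 165.8 and 154 with 0.5%, and 135.3, 141.2 and 130.9 with 1%. Every step down was free of overlap, with log2 fold changes of -0.41 ± 0.07 and -0.68 ± 0.07 against the controls (edgeR adjusted p = 0.000367 and 9.93e-07). The latter went to -0.25 ± 0.07 with the GC and length offset, and the difference between the doses from -0.27 to 0.043, no longer called. SLC4A7 had 46.4, 45.6 and 47.03 CPM without hexanediol, 24.2, 34.1 and 25.3 with 0.5% and 27.0, 28.2 and 27.3 with 1%. It fell by a like amount at both doses, at -0.73 ± 0.11 and -0.75 ± 0.11, with a difference between them of -0.02 ± 0.11 (edgeR adjusted p = 0.9) that became -0.32 (0.0314) with the offset.

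With 0.5% hexanediol 4 of the 6 were called, all lower, against 39.0% of the 16840 genes tested (19.4% higher, 19.6% lower). With 1% all 6 were, 5 lower and SLC16A1 higher, against 62.5% (30.2% higher, 32.3% lower). Between the doses 4 were, 3 lower and SLC16A1 higher, against 56.0% (28.3% higher, 27.7% lower). Medians of the 6 were -0.76 and -1.06 against the controls, and 0.00 and -0.04 over all genes. Both doses share their control libraries. Of the other monocarboxylate carriers and partners, 7 of 14 rose with 1%, SLC16A14 from 5.37 ± 0.777 to 39.5 ± 2.66 CPM (2.88) and SLC16A9 by 1.75, and 2 fell. NHERF1, a scaffold of the sodium-proton exchangers, fell by 1.95 and SLC9A9, an endosomal exchanger, rose by 2.22. Among the called genes of the other lists were CA13 (1.54), CA8 (0.41), SLC4A10 (1.63), SLC26A7 (1.44), ATP6V1H (1.08) and TCIRG1 (-1.21). The summed luminal markers fell with the dose, to 10155 to 15017 CPM with 0.5% and to the 3547 to 3780 CPM given above with 1%; their part in these results was not tested.

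In the rescue table, loss of ZHX2 lowered CA12 and SLC4A7 most, WT ZHX2 brought both back, and PA and SA did so less. CA12 had 652.8, 658.4 and 655.2 CPM in shCtrl with vector and 292.7, 298.2 and 322.3 in shZHX2 with vector. It had 571, 572.9 and 559.3 with WT, 388.5, 382.9 and 384.1 with PA, and 348.6, 347.2 and 358.3 with SA. No 2 of these 5 groups overlapped. The log2 fold change was -1.11 ± 0.03 for the hairpin (edgeR adjusted p = 9.57e-49), and over vector it was 0.90 ± 0.03 with WT, 0.34 ± 0.03 with PA and 0.21 ± 0.03 with SA. Tested against WT directly, CA12 was lower with PA (-0.56 ± 0.03, edgeR adjusted p = 4.05e-30) and with SA (-0.69 ± 0.03, 1.66e-35), and lower with SA than with PA (-0.13 ± 0.03, 7.49e-05). WT cells fell short of shCtrl by -0.21 ± 0.03, a difference that was -0.05 and not called with the GC and length offset (edgeR adjusted p = 0.127).

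SLC4A7 followed the same order. It had 29.4, 31.9 and 31.2 CPM in shCtrl with vector, 13.1, 12.9 and 13.3 in shZHX2 with vector, 29.1, 28.2 and 25.6 with WT, 19.4, 21.1 and 20.9 with PA and 14.7, 15.04 and 17.0 with SA. Here too the 5 groups were free of overlap. The hairpin changed it by -1.24 ± 0.07 (edgeR adjusted p = 2.07e-28), and over vector it changed by 1.08 ± 0.07 with WT, 0.64 ± 0.07 with PA and 0.25 ± 0.07 with SA. PA and SA were both below WT (-0.44 ± 0.06 and -0.83 ± 0.07, edgeR adjusted p = 5.15e-09 and 4.93e-19), and SA was below PA (-0.39 ± 0.07, 1.07e-06). With the GC and length offset, WT over vector was 0.74 and PA 0.33, and SA over vector lost its call (0.09, edgeR adjusted p = 0.384). The comparisons of WT, PA and SA with vector share the vector libraries.

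ZHX2 itself had 72.3 ± 1.44 CPM with WT, 53.9 ± 0.436 with PA and 80.5 ± 2.26 with SA, all above the 32.0 ± 1.99 of shCtrl with vector. The transcript was thus higher with SA than with WT (log2 0.15 ± 0.04, edgeR adjusted p = 0.000684), where CA12 and SLC4A7 were lower. With PA it was lower than with WT (-0.42 ± 0.04, edgeR adjusted p = 9.61e-15), as were CA12 and SLC4A7. Between PA and WT, the transcript level and the form therefore cannot be told apart. These are RNA libraries, so the level of ZHX2 protein is not known for any form. Its part in the lower CA12 and SLC4A7 with PA and with SA was not tested. The summed luminal markers were also higher in shCtrl and WT than in the other groups but lowest with PA, at 46339 to 47843 CPM in shCtrl with vector, 30941 to 32241 in shZHX2 with vector, 44164 to 44834 with WT, 29185 to 29399 with PA and 32439 to 32886 with SA. The 12 markers of other cells summed to 18.8 to 22.0 CPM in shCtrl with vector, 28.5 to 31.3 in shZHX2 with vector, 13.7 to 16.1 with WT, 19.0 to 21.3 with PA and 15.5 to 18.3 with SA, 11 of them under 1 CPM in each group. Mitochondrial counts made up 0.312% to 0.333% of WT libraries and 0.749% to 1.26% of the others. The part of these in the results was not tested.

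**Figure D3:**
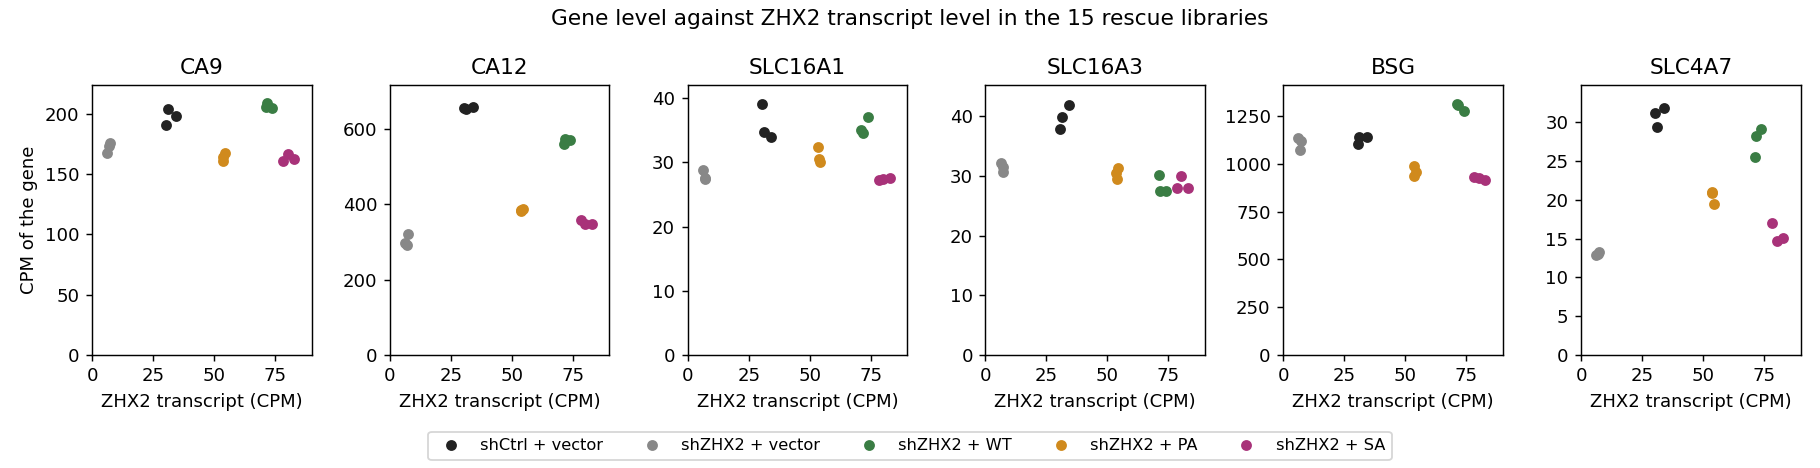
Level of each gene (y axis, CPM) against the ZHX2 transcript (x axis, CPM) in the 15 rescue libraries, coloured by group. CA12 and SLC4A7 are near the shCtrl level with WT ZHX2 and well below it with SA, where the ZHX2 transcript is highest at 78.4 to 82.9 CPM. Both are also below the shCtrl level with PA, where the ZHX2 transcript is below that of WT, at 53.6 to 54.4 CPM.

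The remaining members moved less. CA9 had 203.9, 197.8 and 190.4 CPM in shCtrl with vector, 172.9, 167.1 and 175.5 in shZHX2 with vector and 204.4, 208.8 and 205.1 with WT. The hairpin lowered it (-0.20 ± 0.03, edgeR adjusted p = 1.25e-08; -0.48 with the GC and length offset) and WT raised it (0.26 ± 0.03, 1.84e-12; 0.50 with the offset) without overlap. With PA and SA it stayed at 161.1 to 167.6 CPM, near vector; PA against vector was not called (-0.07 ± 0.03, edgeR adjusted p = 0.0614), was called lower with DESeq2 (-0.08, 0.0454) and turned to 0.19 and called higher with the offset. SLC16A1 fell with the hairpin by -0.36 ± 0.06 (edgeR adjusted p = 1.85e-08; -0.20 with the offset), rose with WT by 0.35 ± 0.06 (0.19 with the offset) and was not called between WT and shCtrl (-0.01 ± 0.05, 0.863). Its values were 33.9 to 39.1 CPM in shCtrl, 27.4 to 28.8 with vector, 34.6 to 37.1 with WT, 30.03 to 32.4 with PA and 27.3 to 27.5 with SA. PA raised it slightly (0.15 ± 0.06, edgeR adjusted p = 0.0218), a call lost without the first or the third vector library or the second PA library (0.0623 to 0.149) and gone with the offset (-0.0020).

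SLC16A3 fell from 37.8 to 42.0 CPM in shCtrl with vector to 30.6 to 32.1 in shZHX2 with vector (-0.34 ± 0.05, edgeR adjusted p = 3.15e-08) and was at 27.4 to 30.1 CPM with WT. WT was lower than vector by this fit (-0.15 ± 0.06, edgeR adjusted p = 0.0144, and 0.0515 to 0.0837 without the second vector library or the first or second WT library) and higher with the GC and length offset (0.25, 5.87e-05), so its direction was not settled. Against shCtrl, WT stood at -0.49, and at -0.18 with the offset. BSG overlapped between shCtrl and shZHX2 vector cells, at 1103 to 1141 and 1074 to 1134 CPM (-0.03 ± 0.03, edgeR adjusted p = 0.402), and was called lower with the offset (-0.22, 6.17e-13). It was higher with WT, at 1278 to 1314 CPM (0.23 ± 0.03, edgeR adjusted p = 2.28e-12; 0.56 with the offset), and lower with PA and SA, at 937.1 to 987.2 and 916 to 930.2 CPM (-0.21 ± 0.03 and -0.26 ± 0.03). With the offset PA stood at -0.07 (0.0127) and SA at -0.05 and not called (0.108).

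Of the 6, 5 fell with the hairpin in the rescue table (69.2% of the 14302 genes tested were called, 35.3% lower), and 5 rose and 1 fell with WT over vector (69.7% called, 35.1% higher). WT and shCtrl differed in 4 of them, 1 higher and 3 lower (54.2% called, 27.1% higher and 27.1% lower). Over vector, PA changed 4, 3 higher and 1 lower (47.6% called, 24.7% higher and 22.9% lower). SA changed 5, 2 higher and 3 lower (41.7% called, 20.2% higher and 21.5% lower). For SA, the calls of CA9 (edgeR adjusted p = 0.0433) and SLC16A3 (0.0459) were lost with DESeq2. With SA, the 5 fell to 3 without the third vector library or the second SA library and to 2 without the third SA library. PA was lower than WT in 5 of 6 (66.9% called, 33.2% higher and 33.8% lower), as was SA (64.1% called, 32.0% lower), the exception being SLC16A3. SA was lower than PA in 3 (40.7% called, 22.5% lower). Of the 5 other carbonic anhydrases, 3 fell with the hairpin and 1 rose, 4 rose with WT over vector, and 4 were lower with PA and with SA than with WT. CA8 fell by -1.70 and CA5B by -1.06, where CA5B had risen by 0.54 with shZHX2 in the shRNA table.

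Cells with guides against ZHX2 had more SLC16A3, BSG and CA9 and less CA12, SLC16A1 and SLC4A7 than their controls as fitted, in both guide systems. CA12 had 785.5, 795.2 and 773.1 CPM in sgCtrl and 552.2, 526.3 and 534.1 in sgZHX2 (-0.55 ± 0.02, edgeR adjusted p = 3.93e-24). In the teton pair it had 738.5, 758.8 and 771 against 577, 556.3 and 553.2 CPM (-0.43 ± 0.02, edgeR adjusted p = 4.59e-20). Neither pair overlapped. SLC16A3 had 55.9, 56.0 and 53.2 CPM in sgCtrl and 104.3, 113.1 and 106.1 in sgZHX2, a 1.96-fold rise (0.97 ± 0.04, edgeR adjusted p = 8.99e-22), and 54.7, 57.7 and 49.4 against 88.3, 88.6 and 92.7 in the teton pair (0.73 ± 0.04, 7.67e-18). These groups were free of overlap as well, and the direction is opposite to that with shZHX2 in both shRNA designs.

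BSG rose from 874.5 to 892.5 CPM in sgCtrl to 1293 to 1339 in sgZHX2 (0.56 ± 0.02, edgeR adjusted p = 2.65e-26) and from 864.9 to 882.8 to 1118 to 1138 CPM in the teton pair (0.37 ± 0.02, 3.69e-19). CA9 rose from 141.7 to 149.2 CPM to 178.9 to 185.3 (0.34 ± 0.03, edgeR adjusted p = 8.16e-15) and from 143.4 to 146.2 to 159.4 to 161.7 CPM (0.15 ± 0.03, 8.16e-06). In each case the treated libraries lay above all controls. SLC4A7 fell from 99.0 to 100.1 CPM to 63.8 to 67.9 (-0.58 ± 0.04, edgeR adjusted p = 3.7e-19) and from 96.2 to 104.1 to 73.2 to 79.9 CPM (-0.38 ± 0.04, 2.56e-13). SLC16A1 fell from 72.0 to 76.9 CPM to 49.2 to 55.3 (-0.50 ± 0.04, edgeR adjusted p = 2.17e-12) and from 64.7 to 73.9 to 59.1 to 61.1 CPM (-0.22 ± 0.04, 3.86e-05).

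All 6 were called in each guide system, 3 higher and 3 lower. Of the 15781 genes tested, 73.1% were called with sgZHX2 (37.0% higher, 36.1% lower) and 69.1% in the teton pair (34.4% higher, 34.7% lower). The effects differed between the systems in all 6, beside 20.3% of all genes, and were smaller in the teton pair. With the GC and length offset the difference was called for CA12 and SLC16A1 and not for the other 4, and the effect on CA9 was then -0.12 with sgZHX2 and -0.18 in the teton pair. The GC content of all counted reads, weighted by gene, was 51.5% in sgCtrl libraries and 53.2% to 53.4% in sgZHX2 ones, and members with GC-rich transcripts rose while those with GC-poor ones fell. With the GC and length offset, CA12 held at -0.59 ± 0.02 and -0.42 ± 0.02 in the 2 systems and SLC16A3 at 0.47 ± 0.04 and 0.42 ± 0.04. CA9 turned negative (edgeR adjusted p = 0.000136 and 8.93e-08). BSG (0.01 and -0.03) and SLC4A7 (-0.03 and 0.02) were no longer called, nor was SLC16A1 in the teton pair (-0.03, edgeR adjusted p = 0.565). Of the 5 other carbonic anhydrases tested, 4 fell with sgZHX2 and 5 in the teton pair, and none rose. The 12 markers of other cells summed to 28.9 to 31.5 CPM in sgCtrl and 58.8 to 59.7 in sgZHX2, and to 31.4 to 33.5 and 51.4 to 52.9 CPM in the teton pair, 10 of them under 1 CPM in each group. The mitochondrial share was 2.51% to 2.71% in sgCtrl, 1.67% to 1.71% in sgZHX2, 2.83% to 2.95% in teton_control and 1.69% to 1.82% in teton_sgZHX2. The part of these in the results was not tested.

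**Figure D4:**
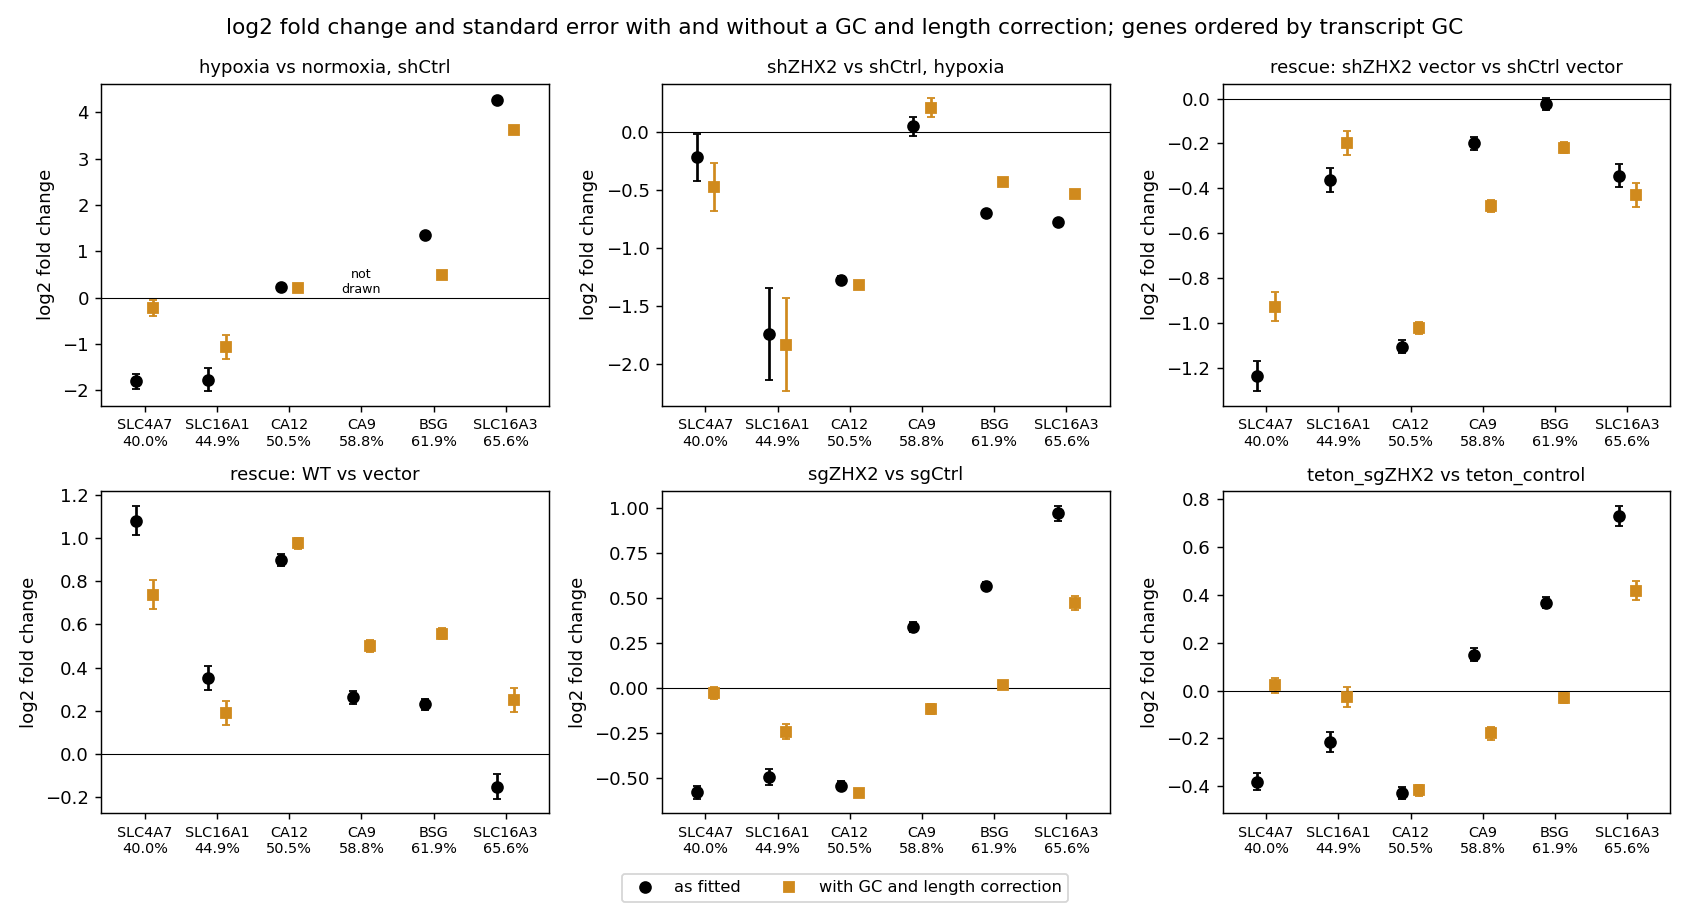
log2 fold change (y axis) with its standard error as fitted (black circles) and with a GC and length offset (orange squares) in 6 comparisons, genes ordered by the GC content of their transcripts; CA9 against normoxia is not drawn. CA12, at 50.5% GC, moves by less than 0.1 in each of these 6 panels, whereas SLC4A7 in hypoxia goes from -1.80 to -0.23 and BSG with sgZHX2 from 0.56 to 0.01.

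The balance of the lactate carriers differed most in hypoxic shRNA cells. As a count ratio within a library, SLC16A3 over SLC16A1 was 3.43 ± 0.15 on the log2 scale in normoxic shCtrl cells, 9.57 ± 0.63 in hypoxic ones and 10.52 ± 0.54 with shZHX2. It was 1.60 ± 0.16 without hexanediol, 1.76 ± 0.70 with 0.5% and -1.94 ± 0.51 with 1%. In sgCtrl it was -0.43 ± 0.03 and in sgZHX2 1.04 ± 0.15, and in the teton pair -0.38 ± 0.15 and 0.57 ± 0.04. Rescue groups lay between -0.33 and 0.17. A ratio of counts needs no scaling between libraries, but it mixes transcripts of unequal length and shows unequal change, not which of the carriers changed. Nor does it cancel GC content, which differs between them. With the offset, the log2 fold changes with sgZHX2 were 0.47 for SLC16A3 and -0.24 for SLC16A1, against 0.97 and -0.50 without it. The ratios of hypoxic shRNA cells rest on 4 to 23 SLC16A1 reads per library.

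**Figure D5:**
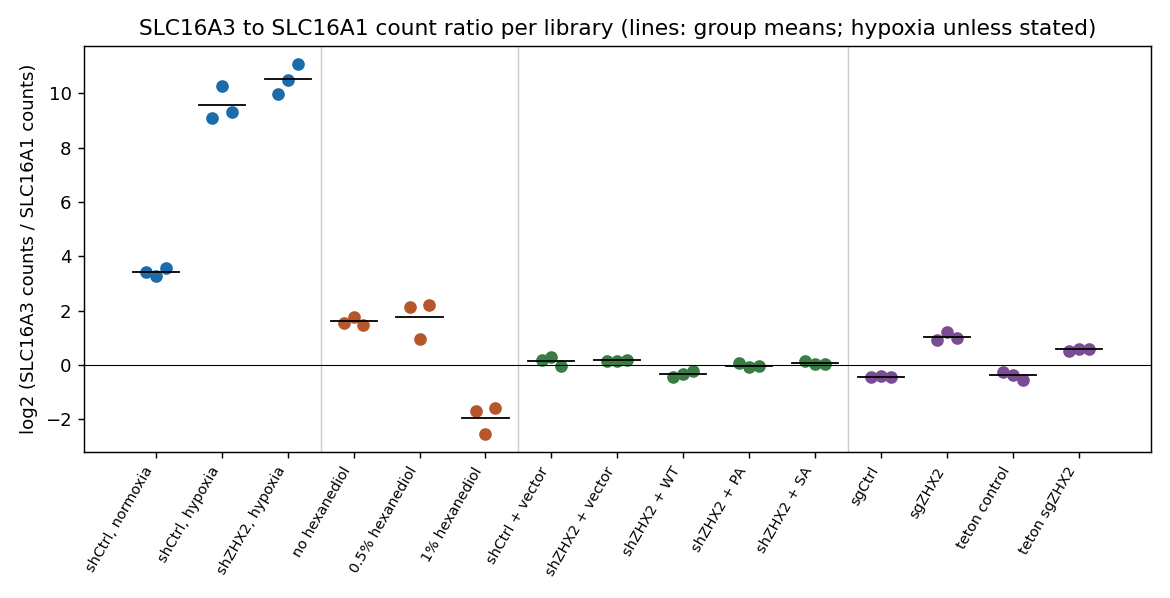
log2 ratio of SLC16A3 to SLC16A1 counts (y axis) in each library by group (points; lines are means of 3). The 1% hexanediol libraries lie between -2.52 and -1.59, below those of 0.5% hexanediol at 0.95 to 2.20 and of the controls at 1.48 to 1.78.

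Across the 45 libraries, with log2 CPM centred on each table's mean, SLC16A3 was most like CA9 and BSG among the members (r = 0.89 and 0.85), and CA12 was unlike CA9 (r = -0.08) and SLC16A1 (r = -0.01). Of 12560 genes tested in all tables, the 3 most like each member were ALKBH5 (r = 0.96), QSOX1 and KIAA2013 for CA9; ABAT (0.96), EMP2 and PTGFRN for CA12; NLN (0.92), TEX30 and CEP55 for SLC16A1; PTPRU (0.97), NOTCH3 and PLOD1 for SLC16A3; SPINT2 (0.92), FIBCD1 and COL18A1 for BSG; and SYNCRIP (0.96), MAGT1 and PRKDC for SLC4A7. Centring by table keeps the differences between groups. For CA9 and SLC16A3 the largest of these was between normoxic and hypoxic libraries of the shRNA table, so their correlations restate it in part. How far they rest on it was not tested. The libraries also share tables, groups and base composition: transcripts of the genes most like SLC16A3 had 58.1% to 63.1% GC and those most like SLC4A7 38.3% to 45.2%.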

How the data were processed

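The deposited tables hold whole-number read counts per gene, not normalised by the authors; the submitters' processing notes name FastQC, HISAT2, featureCounts and DESeq2 with hg38. The sources used here give neither annotation nor strand settings. Each table was fitted apart with edgeR 4.0.16 in R 4.3.3 (filterByExpr, TMM, robust quasi-likelihood, all groups in 1 model, p-values adjusted over all genes by Benjamini-Hochberg); a gene was called at an adjusted p under 0.05. This left 14903 genes for shRNA (17476890 to 19480495 counts per library), 16840 for hexanediol (14111216 to 17713327), 14302 for rescue (18056398 to 24760885) and 15781 for sgRNA (21225854 to 27217814). CPM values use TMM-scaled totals within a table. Values are mean ± SD over 3 libraries, and log2 fold changes ± SE, computed as the log2 fold change over the square root of F; log2 CPM used a prior count of 2.

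Library scaling (RLE, totals alone), DESeq2 1.42.0, no filter, only the groups compared, a replicate block, an offset for GC and length (natural splines per library, GENCODE release 29) and leaving out libraries were alternatives. The edgeR steps were tested on simulated data in which far fewer genes changed than were called here. That test therefore does not check the scaling or the calls of these contrasts. The 6 genes were named in every comparison; from each other list, up to 2 called genes with the largest change, an average log2 CPM of at least 1 and no overlap were named in 4 comparisons. One gene this rule selects is not reported here. The members and lists were chosen with earlier results of these data known. SLC16A1-AS1, NDRG1, LDHA, VEGFA and the genes overlapping members were added after their values were seen. Nothing in the labels ties replicates to cultures grown apart, so a p-value reflects only how these libraries vary, possibly for technical reasons. The 45 replicate pairs differed by more than counting noise (chi-square per degree of freedom 1.70 to 25.0), and none was taken as a duplicate. Same-numbered libraries deviated together, with every correlation over 0.1, in 1 of 22 pairs of groups, 0.5% and 1% hexanediol (0.12, 0.318 and 0.116). Differently numbered libraries of these groups reached 0.168, so whether the numbers pair them was not settled. The main fits, that between the doses included, used no block.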

Additional observations from a re-analysis of the deposited data

Results flagged for a closer look

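The effect of the ZHX2 guides differed between the teton pair and the pair of sgZHX2 and sgCtrl for each of the 6 genes. This was by edgeR's test of the difference itself, which called 20.3% of all genes. On the log2 scale the teton effect minus that of sgZHX2 was -0.19 for CA9 (edgeR adjusted p = 0.000446) and 0.12 for CA12 (0.0121). It was 0.28 for SLC16A1 (0.00102), -0.24 for SLC16A3 (0.00308), -0.20 for BSG (7.38e-06) and 0.20 for SLC4A7 (0.00297). As fitted, the teton effect was the smaller in each case. With the GC and length offset the difference was called for CA12 (0.17) and SLC16A1 (0.22) and not for the other 4. That of CA12 also lost its call without the first teton_sgZHX2 library (edgeR adjusted p = 0.0545).

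Some members moved in opposite directions with the hairpin and with sgZHX2. In each case all libraries of the hairpin lay on 1 side of their controls and all of sgZHX2 on the opposite side. SLC16A3 was at -0.78 with shZHX2 in the shRNA table, at -0.34 in the rescue table and at 0.97 with sgZHX2. BSG was at -0.70 with shZHX2 in the shRNA table and at 0.56 with sgZHX2. CA9 was at -0.20 with shZHX2 in the rescue table and at 0.34 with sgZHX2. The designs lie in different tables, and these differences were not tested. With the GC and length offset CA9 no longer differed in sign (-0.48 and -0.12), BSG with sgZHX2 was at 0.01, and SLC16A3 kept both signs (-0.54, -0.43 and 0.47).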

How the results depend on the processing

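Scaling by totals alone moved the median of all genes by -0.49 in hypoxia, 0.23 with shZHX2, -0.25 between shZHX2 hypoxia and normoxia, 0.12 and 0.18 with 0.5% and 1% hexanediol, -0.11 between WT and shCtrl, 0.15 for PA over vector, 0.25 for PA against WT and -0.15 for SA against PA; it turned CA12 in hypoxia to -0.26, CA9 for PA over vector to 0.082 and SLC16A1 for PA against WT to 0.043. The share of calls that were higher then went from 53.9% to 29.6% in hypoxia, 50.3% to 67.6% with shZHX2, 49.0% to 38.6% between shZHX2 hypoxia and normoxia, 49.7% to 65.9% and 48.3% to 59.8% with the 2 doses, 50.1% to 34.1% for WT against shCtrl, 52.0% to 76.4% for PA over vector, 49.6% to 70.6% for PA against WT and 44.7% to 19.3% for SA against PA. The GC and length offset shifted the hypoxia median by -0.12 and that of shZHX2 hypoxia against normoxia by -0.14, and moved the share for the difference between guide systems from 59.0% to 78.9%.

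With the GC and length offset, and in parentheses with the replicate block added, signs turned for BSG between hexanediol doses, 0.043 (0.044), and for SLC16A3 with WT over vector, 0.25 (0.25), SA over vector, 0.16 (0.16), PA against WT, -0.25 (-0.25), and SA against PA, 0.16 (0.16). CA9 turned with PA over vector, 0.19 (0.19), SA over vector, 0.062 (0.062), sgZHX2, -0.12 (-0.12), and teton_sgZHX2, -0.18 (-0.18). SLC16A1 turned with PA over vector, -0.0020 (-0.0013), and in the teton pair BSG, -0.031 (-0.031), and SLC4A7, 0.021 (0.021). The offset left 3 of 6 genes called for SA over vector and in the teton pair, 5 for SA against PA (3 before) and 2 for the difference between guide systems, each also with the block; over all genes it took SA over vector from 5962 to 3691 (3641) calls and that difference from 3206 to 1310 (1279). The cause was not tested.

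For SA over vector 3 genes were called with DESeq2, without the filter and with only the groups compared, and 2 to 5 when 1 library was left out; SA against PA had 6 with scaling by totals alone. The replicate block alone changed 1 call of a member: SLC16A3 with 0.5% hexanediol against control was then called, at -1.02 (edgeR adjusted p = 0.0465). Same-numbered libraries of the control and 0.5% groups correlated at only 0.019, 0.018 and 0.047, though 4 of 6 correlated best with their own number. Between 0.5% and 1% it was 2 of 6. Whether the numbers pair these libraries was not settled. Leaving out 1 library changed 39 of 648 tests of a member's value and turned no called sign. Low counts limit CA9 with hexanediol and SLC16A1 in hypoxic shRNA cells.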

Other observations

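Bicarbonate transporters other than SLC4A7 rose with sgZHX2 in 5 of 6 cases tested, with a median log2 fold change of 0.59 against 0.01 over all genes, and in 4 of 6 in the teton pair (0.30), and none fell; of all genes, 37.0% and 34.4% were called higher. Other carbonic anhydrases fell in 4 of 5 and 5 of 5 cases, with medians of -0.75 and -0.77, where 36.1% and 34.7% of all genes were called lower. The classes were not tested against each other or against other genes. These values are without the GC and length offset, in contrasts where change followed GC across genes (Spearman rho = 0.58 and 0.48) and the offset ended or turned calls of BSG, SLC4A7 and CA9. V-ATPase subunits were split, 9 higher and 9 lower of 22 with sgZHX2 and 10 and 11 in the teton pair. In the rescue table the hairpin raised SLC4A2 (AE2), a chloride-bicarbonate exchanger, from 71.1 ± 1.99 to 124 ± 3.15 CPM and the V-ATPase subunit ATP6V0B from 129 ± 1.48 to 354 ± 7.89 CPM, while SLC9A2 fell from 3.91 ± 0.369 to 1.30 ± 0.135 CPM, as it had in the shRNA table. SLC16A14 (1.21), ATP6V0A2 (1.15) and SLC26A11 (0.23) rose and SLC9A7 (-0.70) fell. SLC5A8, a sodium-coupled monocarboxylate carrier, rose from 0.645 ± 0.169 to 2.95 ± 0.487 CPM.

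The hypoxia genes NDRG1, LDHA and VEGFA were chosen here after their values were seen. Across the hypoxic controls of the 4 tables they did not follow SLC16A3, except NDRG1 in the hexanediol controls. In hypoxic shCtrl cells of the shRNA table NDRG1 had 484 ± 7.43 CPM beside 807 ± 16.0 of SLC16A3, whereas in sgCtrl it had 3333 ± 36.2 CPM beside 55.0 ± 1.60. LDHA, the enzyme that makes lactate, had 1118 ± 11.2 CPM in the former and 4806 ± 115 CPM in the latter. Tables were scaled apart and their libraries differed in GC content, so these are values set side by side.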
